A study of Rattus norvegicus with 9 samples.

Results

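The BCL2 family decides whether a cell keeps its mitochondria intact or releases cytochrome c and dies. The genes described here are 10 members of that family, chosen by symbol: the survival genes Bcl2, Bcl2l1, Mcl1 and Bcl2a1, the pore-forming effectors Bax and Bak1, and the BH3-only death genes Bid, Bcl2l11, Pmaip1 and Bbc3. Of these 10 genes, 8 were read from the 22077 intact gene lines of the table, and Mcl1 and Bbc3 were not analysed here. All 8 passed the filter on low counts, as did 12447 genes in all.

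The cells were peripheral blood mononuclear cells (PBMC, blood leukocytes separated from most red cells and granulocytes) of wild-type Sprague-Dawley rats. Of the 9 RNA-seq libraries, 3 were from rats in normoxia at day 0, 3 from Sugen-hypoxia (SuHx) rats at day 28 and 3 from SuHx rats at day 56. SuHx pairs Sugen, a VEGF receptor inhibitor, with low oxygen and is used as a rat model of pulmonary hypertension. Age of the rats, pooling and whether replicates were separate animals are not given in the labels, so p-values measure only the spread between these libraries, which may be technical. The only controls are at day 0, so time, age and treatment cannot be told apart, and both SuHx groups are compared with the same 3 normoxia libraries.

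In this family, survival proteins hold BAX and BAK1 in check by binding them or by binding the BH3-only proteins that would set them off. BH3-only proteins carry the stress signal: NOXA, the product of Pmaip1, binds MCL1 and the protein of Bcl2a1, whereas BIM, the product of Bcl2l11, binds all the survival proteins. Blood cell types lean on different survival genes. Lymphocytes depend on Bcl2, maturing red cells and platelets on Bcl2l1, and activated myeloid and lymphoid cells raise Bcl2a1.

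The libraries held 22148400 to 39947430 exon reads, and the members 78 to 3823 exon reads per library. The globin share was taken as the share of exon reads on the 5 genes with the most exon reads. It was 43.0 to 56.3% in normoxia, 40.5 to 44.4% at day 56, and 1.42, 4.83 and 29.0% in day 28 replicates 1, 2 and 3. Intron reads made up 14.6, 6.60 and 5.37% of reads in genes in normoxia replicates 1, 2 and 3, 14.2 to 24.9% at day 28 and 11.9 to 16.9% at day 56. Normoxia replicate 1 therefore stood apart from the other normoxia libraries, and day 28 replicate 3 from the other day 28 libraries, and values without them are given where a result rests on them. All 10 T cell markers, all 7 B cell markers with a line, all 8 NK cell markers and 9 of 10 monocyte markers had reads in every library, while 15 of 16 erythroid markers also did. In bulk RNA, fewer cells of a type and less RNA per cell cannot be told apart.

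The promoters of the 3 members that passed the test in some comparison are shown first, because they are the annotated start regions of the genes whose changes are described below; which start the cells used was not measured. They are the RefSeq entries on GRCr8, from 250 bases before to 50 bases after the annotated start, written 5′ to 3′ on the gene's strand. Capitals mark matches, on either strand, to 4 motifs: the cAMP response element core TGACGT, the AP-1 site TGANTCA, the GATA site AGATAA and the GC box GGGCGG. No 2 of these matches overlap in the sequences shown.
Pmaip1 (chr18:62255720-62256019, plus strand): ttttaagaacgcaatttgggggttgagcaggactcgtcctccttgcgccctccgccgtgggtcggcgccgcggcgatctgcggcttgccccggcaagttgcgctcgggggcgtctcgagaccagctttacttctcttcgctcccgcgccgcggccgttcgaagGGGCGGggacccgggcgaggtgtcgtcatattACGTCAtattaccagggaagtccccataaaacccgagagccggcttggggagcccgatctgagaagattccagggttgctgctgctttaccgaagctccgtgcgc
Bcl2 (chr13:23366851-23367150, minus strand): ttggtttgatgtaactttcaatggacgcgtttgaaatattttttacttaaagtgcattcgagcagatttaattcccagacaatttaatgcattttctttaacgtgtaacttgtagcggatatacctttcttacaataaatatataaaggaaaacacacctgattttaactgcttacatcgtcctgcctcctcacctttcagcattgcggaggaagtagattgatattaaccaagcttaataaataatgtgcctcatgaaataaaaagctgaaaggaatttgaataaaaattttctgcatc
Bcl2l1 (chr3:161764726-161765025, minus strand, the first of 4 entries): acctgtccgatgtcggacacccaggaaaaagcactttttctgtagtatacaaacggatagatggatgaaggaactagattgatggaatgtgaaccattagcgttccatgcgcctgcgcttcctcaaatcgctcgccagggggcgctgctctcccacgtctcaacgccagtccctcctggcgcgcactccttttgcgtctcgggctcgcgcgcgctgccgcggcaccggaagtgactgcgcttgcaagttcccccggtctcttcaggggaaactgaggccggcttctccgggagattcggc
The Pmaip1 stretch holds 1 cAMP response element core, beginning at base -55 from the start and read there as its reverse complement, and 1 GC box beginning at -87. The core occurs in 7.94% of all 33469 promoter entries and the GC box in 33.1%. The Bcl2 stretch and the Bcl2l1 stretch shown have no match to any of the 4 motifs; of the other 3 Bcl2l1 entries, 1 has a GC box. The AP-1 letters occur in 7.33% of all entries and the GATA letters in 11.6%. Of the 10 genes, 8 have an entry in this table.

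Levels are given as CPM, exon reads scaled to a common library total with TMM factors, and fold changes are tested with edgeR and adjusted over all 12447 genes. Pmaip1 and Bcl2 rose from normoxia to day 56, and Bcl2l1 rose from day 28 to day 56. The other 5 members passed the test in no comparison. At day 56 against normoxia, 2 of 8 members passed, both higher, where 7.12% of all genes passed and 3.42% passed as higher. At day 56 against day 28, 1 of 8 passed, as higher, where 0.546% of all genes passed and 0.426% as higher. At day 28 against normoxia 0 of 8 passed with edgeR, against 0.129% of all genes; 4 of 8 had an unadjusted p under 0.05, as did 28.8% of all genes, and DESeq2 called 4 of 8, against 9.81% of the genes it tested. Without normoxia replicate 1, edgeR called 4 of 8 members at day 28, 3 at day 56 and 2 between the days, in fits that called 45.2, 43.0 and 7.89% of all genes.

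**Figure D1:**
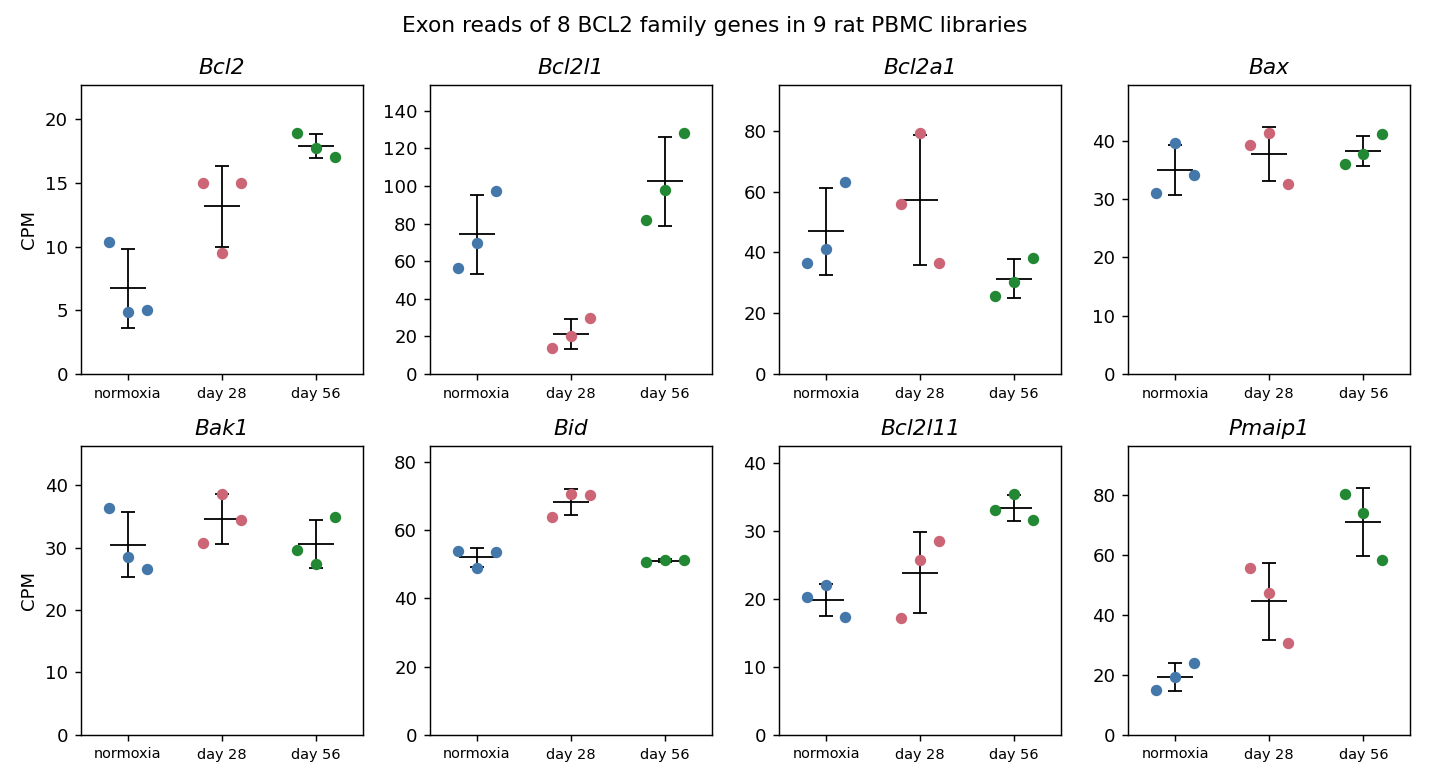
Exon reads of the 8 members in each library, in CPM on linear axes from 0; points are single libraries in the order of their replicate numbers, horizontal bars are group means and error bars are the SD (n = 3). Pmaip1 lies at 14.8 to 23.9 CPM in normoxia and 58.3 to 80.4 CPM at day 56, while Bcl2l1 dips to 13.8 to 29.8 CPM at day 28.

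Bcl2, the founding survival gene (ENSRNOG00000002791, rn6 chromosome 13, 26605425 to 26769374, 3 exons), was the lowest member in CPM in every group. It measured 10.3, 4.86 and 5.06 CPM in normoxia replicates 1, 2 and 3. At day 28 it measured 15.0, 9.47 and 15.0 CPM, and at day 56 it measured 18.9, 17.8 and 17.1 CPM. Every day 56 library was above every normoxia and every day 28 library, while day 28 replicate 2 fell below normoxia replicate 1. The rise from normoxia to day 56 was 2.65-fold, a log2 difference of 1.40 (SE 0.31, edgeR adjusted p = 0.0329), from 6.75 ± 3.10 to 17.9 ± 0.94 CPM (SD, n = 3 each). At day 28 the log2 difference from normoxia was 0.96 (SE 0.31, adjusted p = 0.109), and between the days it was 0.45 (SE 0.30, adjusted p = 0.488). Without normoxia replicate 1 the day 28 difference was 1.43 and passed (adjusted p = 0.00148), in a fit that called 45.2% of all genes.

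The Bcl2 call at day 56 depended on single libraries. Its adjusted p was 0.132 without normoxia replicate 2, 0.130 without normoxia replicate 3, 0.0562 without day 28 replicate 1 and 0.0820, 0.109 and 0.106 without day 56 replicate 1, 2 or 3. Without normoxia replicate 1, the highest of the normoxia libraries for Bcl2, the log2 difference was 1.87 and the adjusted p 0.000457, in a fit that called 43.0% of all genes. With the intron share of each library as a covariate it was 1.22 (adjusted p = 0.107), and with the log2 globin share 1.40 (adjusted p = 0.0524), so that the call was lost with either. The summed level of the T cell markers was 1361 to 1731 CPM in normoxia and 1408 to 1826 CPM at day 56, and that of the B cell markers 973 to 1575 and 474 to 790 CPM. The T cell sums thus overlapped between these groups while B cell marker RNA was lower in every day 56 library, and the part of either in the Bcl2 result was not tested.

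Bcl2l1, which encodes the survival protein BCL-XL (ENSRNOG00000007946, rn6 chromosome 3, 148259595 to 148313810, 8 exons), had the largest difference between any 2 groups among the 8 members. It measured 56.2, 69.5 and 97.1 CPM in normoxia replicates 1, 2 and 3. At day 28 it measured 13.8, 20.5 and 29.8 CPM, and at day 56 it measured 81.7, 97.7 and 128 CPM. The day 28 libraries lay below all 6 others, and the normoxia and day 56 libraries overlapped. From day 28 to day 56 Bcl2l1 rose 4.80-fold, a log2 difference of 2.26 (SE 0.32, edgeR adjusted p = 0.0291), from 21.4 ± 8.05 to 102.5 ± 23.6 CPM (SD, n = 3 each). The difference of day 28 from normoxia was -1.80 (SE 0.32, adjusted p = 0.0539), and passed in 8 of 22 alternative settings; that of day 56 from normoxia was 0.47 (SE 0.31, adjusted p = 0.320).

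Red cell RNA, like Bcl2l1, was lowest at day 28. The 16 erythroid markers with a line summed to 3894, 7910 and 9950 CPM in normoxia, to 117, 391 and 2324 CPM at day 28 and to 4373, 4956 and 4781 CPM at day 56. All 16 were lower at day 28 than in normoxia, with a median log2 difference of -2.81, and all 16 were higher at day 56 than at day 28, with a median of 2.15. Of the 16, 1 passed the test as lower at day 28 and 2 passed as higher between the days, beside 0.129 and 0.546% of all genes. From normoxia to day 56, 14 of the 16 were lower and 2 higher, with a median of -0.50, where Bcl2l1 gave 0.47. Within each of the 3 groups, the library with the largest globin share also had the most Bcl2l1. Platelets are another setting in which BCL-XL is known as the survival protein. Platelet markers were lower at day 28 than in normoxia in 11 of 11 tested genes. Between the days, 11 of 11 were higher at day 56, and none passed the test in either comparison. Platelet markers summed to 899, 3732 and 4050 CPM in normoxia, 685, 1077 and 1055 CPM at day 28 and 2272, 2245 and 4427 CPM at day 56. Normoxia replicate 1 thus had less platelet marker RNA than day 28 replicates 2 and 3, but more Bcl2l1. The part of red cells and platelets in the Bcl2l1 levels was not tested.

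With the log2 globin share of each library as a covariate, the difference of Bcl2l1 between the days was 1.55 (adjusted p = 0.377), in a fit that called 0 genes of 12447 and gave 960 an unadjusted p under 0.05. Leaving globin and erythroid genes out of the library sizes gave 2.25 (adjusted p = 0.0279). The call was also lost without day 28 replicate 1 (2.01, adjusted p = 0.0750), without day 28 replicate 2 (2.23, adjusted p = 0.108) and without day 56 replicate 1, 2 or 3 (adjusted p = 0.0786, 0.109 and 0.122). Without both normoxia replicate 1 and day 28 replicate 3, it was 2.57 (adjusted p = 0.00395). Of the Bcl2l1 exon reads, 97.2% mapped uniquely.

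**Figure D2:**
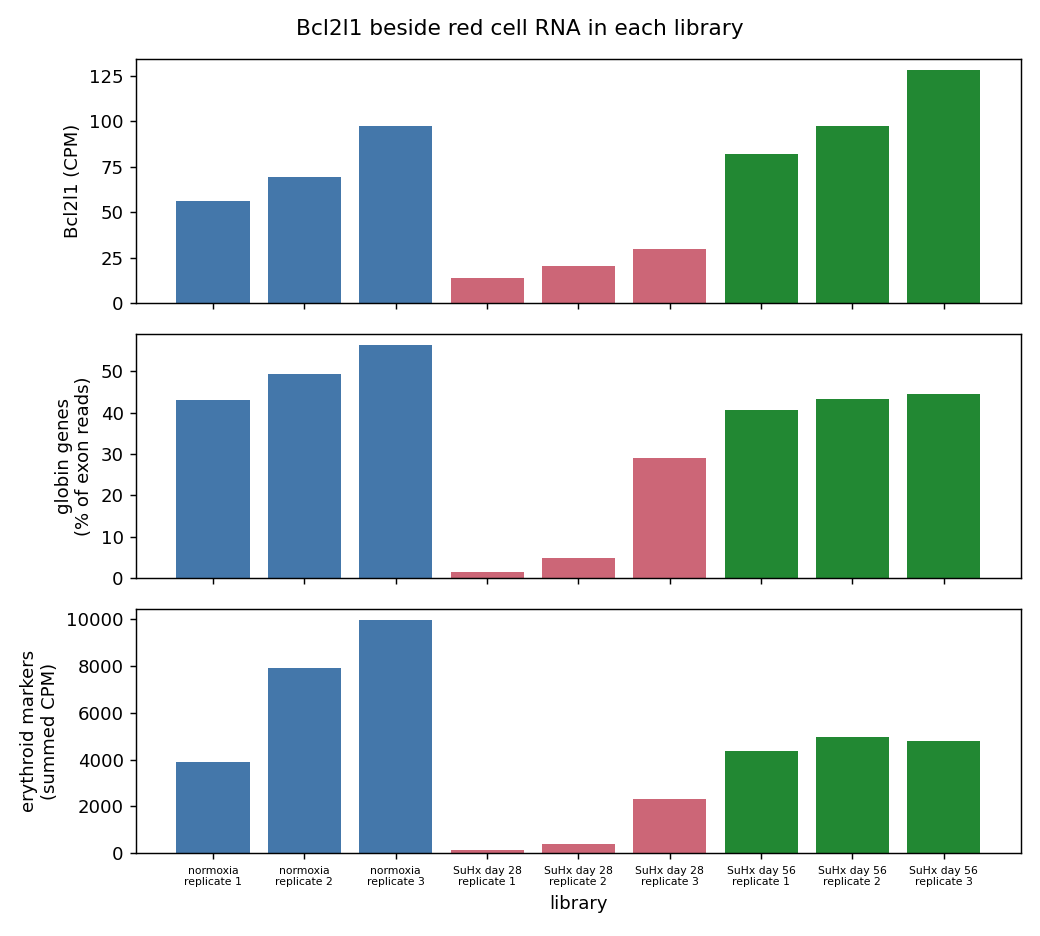
Bcl2l1 in CPM, the globin share (exon reads on the 5 genes with the most exon reads) in percent and the summed CPM of 16 erythroid markers, as bars for each library on linear axes from 0. Day 28 replicate 1 has the least of all 3 quantities (13.8 CPM, 1.42% and 117 CPM), and in each group the highest Bcl2l1 bar stands over the highest globin bar.

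Bcl2a1, a survival gene induced by NF-kB in myeloid and activated lymphoid cells (ENSRNOG00000047606, rn6 chromosome 8, 96551244 to 96559483, 2 exons), changed in no comparison by the test. It measured 36.5, 41.1 and 63.1 CPM in normoxia, 56.0, 79.2 and 36.6 CPM at day 28, and 25.6, 30.2 and 38.3 CPM at day 56. The ranges of all 3 groups overlapped. The log2 difference was 0.29 at day 28 (SE 0.31, adjusted p = 0.526), -0.58 at day 56 (SE 0.31, adjusted p = 0.224) and -0.87 between the days (SE 0.31, adjusted p = 0.174). All 9 tested monocyte markers and all 8 tested neutrophil markers were higher at day 28 than in normoxia, with median log2 differences of 1.24 and 1.06, though none passed the test. At day 56 against normoxia, 6 of 9 and 5 of 8 were higher, with medians of 0.16 and 0.09, where Bcl2a1 gave -0.58. Monocyte markers summed to 2059 to 4359 CPM in normoxia, 3174 to 10303 CPM at day 28 and 1722 to 2698 CPM at day 56. Day 28 replicate 2 had the most Bcl2a1 and the most monocyte and neutrophil RNA of all 9 libraries. Day 28 replicate 3 had 36.6 CPM of Bcl2a1 and 3174 CPM of monocyte markers, each within its normoxia range. Its neutrophil markers summed to 344 CPM, above their normoxia range. Neutrophil markers summed to 105 to 245 CPM in normoxia, 290 to 998 CPM at day 28 and 116 to 242 CPM at day 56, with Np4 at 0 in every library; the part of these cells in the Bcl2a1 levels was not tested.

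The 2 effectors, whose proteins form the pore in the outer mitochondrial membrane, passed in no comparison of exon reads. Bax (ENSRNOG00000020876, rn6 chromosome 1, 101451801 to 101457207) measured 31.0 to 39.5 CPM in normoxia, 32.5 to 41.3 CPM at day 28 and 36.0 to 41.1 CPM at day 56. Bak1 (ENSRNOG00000000485, rn6 chromosome 20, 5609624 to 5618260) measured 26.5 to 36.3, 30.7 to 38.6 and 27.4 to 34.9 CPM in the same groups. All groups overlapped for both genes. Their log2 differences lay between -0.17 and 0.18, with SE of 0.16 for Bax and 0.17 to 0.18 for Bak1, and the lowest adjusted p was 0.486. Differences of the size of these errors were not detectable.

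Pmaip1, which encodes the BH3-only protein NOXA and is known as a target of stress pathways (ENSRNOG00000018770, rn6 chromosome 18, 62174669 to 62181102, 3 exons), rose the most of the members from normoxia to day 56. It measured 14.8, 19.2 and 23.9 CPM in normoxia. At day 28 it measured 55.6, 47.4 and 30.6 CPM, and at day 56 it measured 80.4, 74.1 and 58.3 CPM. The groups formed 3 steps with no overlap: every day 28 library was above every normoxia library, and every day 56 library above every day 28 library. The rise to day 56 was 3.67-fold, a log2 difference of 1.88 (SE 0.26, edgeR adjusted p = 0.00751), from 19.3 ± 4.56 to 71.0 ± 11.4 CPM (SD, n = 3 each). At day 28 the difference from normoxia was 1.21 (SE 0.26, adjusted p = 0.0673) and between the days 0.67 (SE 0.25, adjusted p = 0.195), so that neither step passed alone.

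The Pmaip1 call at day 56 held in all 22 alternative settings, with a log2 difference between 1.72 and 2.06 and an adjusted p of at most 0.0491. Without both normoxia replicate 1 and day 28 replicate 3 it was 1.74. Its call at day 28 was made in 6 of the 22, among them without normoxia replicate 1 (1.08, adjusted p = 0.0114) and without day 28 replicate 3 (1.41, adjusted p = 0.0169). The immediate-early genes, which respond within minutes to stimulation or handling of cells, were also higher as a sum in every SuHx library than in normoxia. Their 10 measured members summed to 318, 486 and 553 CPM in normoxia, 2113, 2691 and 952 CPM at day 28 and 1951, 2234 and 2275 CPM at day 56. Of these, 9 of 10 passed the test at day 56 and 1 of 10 at day 28, all as higher, beside 7.12 and 0.129% of all genes. Passing or not, 9 of 10 were higher at day 28 than in normoxia, with a median log2 difference of 2.14, beside 2.59 at day 56. Day 28 replicate 3 was the lowest SuHx library both for these genes and for Pmaip1. Unlike Pmaip1, their sums overlapped between the days. Within day 56 the order was reversed: replicate 1 had the most Pmaip1 and the lowest immediate-early sum. The part of the immediate-early genes in the Pmaip1 and Bcl2 results was not tested.

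Bcl2l11, the gene of BIM, which removes lymphocytes deprived of growth factor (ENSRNOG00000016551, rn6 chromosome 3, 120726905 to 120764192, 8 exons), was separated between groups without passing the test. It measured 20.2, 22.0 and 17.3 CPM in normoxia, 17.2, 25.8 and 28.6 CPM at day 28, and 33.2, 35.5 and 31.6 CPM at day 56. Every day 56 library was above the 6 others, while normoxia and day 28 overlapped. The log2 difference of day 56 from normoxia was 0.75 (SE 0.20, adjusted p = 0.0534), and it passed in 7 of 22 alternatives, among them DESeq2 (adjusted p = 0.0104) and without normoxia replicate 1 (adjusted p = 0.0236). There DESeq2 called 2343 of the 16940 genes it tested, and the fit without normoxia replicate 1 called 43.0% of all genes. At day 28 the log2 difference of Bcl2l11 was 0.26 (SE 0.20, adjusted p = 0.383), and between the days 0.49 (SE 0.20, adjusted p = 0.231).

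Bid, whose protein links death receptors to mitochondria after caspase-8 cuts it (ENSRNOG00000012439, rn6 chromosome 4, 153442217 to 153465203, 6 exons), was highest at day 28. It measured 53.7, 48.8 and 53.6 CPM in normoxia, 63.9, 70.5 and 70.1 CPM at day 28, and 50.5, 51.3 and 51.1 CPM at day 56. The day 28 libraries lay above all 6 others. The size was 1.31-fold over normoxia, with a log2 difference of 0.39 (SE 0.13, adjusted p = 0.112), and -0.42 from day 28 to day 56 (SE 0.13, adjusted p = 0.132). DESeq2 called both (adjusted p = 0.0120 and 0.0111), as did the fit without normoxia replicate 1 (0.00848 and 0.0319). DESeq2 called 9.81% of the genes it tested at day 28 and 1057 of 16940 between the days. The fit without normoxia replicate 1 called 45.2 and 7.89% of all genes. Over the 22 alternatives, Bid passed in 3 at day 28 and in 3 between the days. The day 28 libraries also had more neutrophil and less erythroid marker RNA than any other library, and the part of these cells in the Bid levels was not tested.

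Separation of groups was common among all genes. At day 28 against normoxia, 2 of 8 members lay wholly higher (Bid, Pmaip1) and 1 wholly lower (Bcl2l1), against 23.2% of all genes in either direction. At day 56 against normoxia, 3 lay wholly higher (Bcl2, Bcl2l11, Pmaip1), against 30.4%, and at day 56 against day 28, 4 lay wholly higher (Bcl2, Bcl2l1, Bcl2l11, Pmaip1) and 1 wholly lower (Bid), against 35.2%. The median log2 difference of the 8 members was 0.28 at day 28, 0.30 at day 56 and 0.23 between the days, beside -0.01, -0.04 and -0.01 over all genes tested. Over all genes, the 16 calls at day 28 were 11 higher and 5 lower, against 31 and 48 with upper-quartile factors and 8 and 0 with RLE factors. No scaling changed the direction of a called member.

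**Figure D3:**
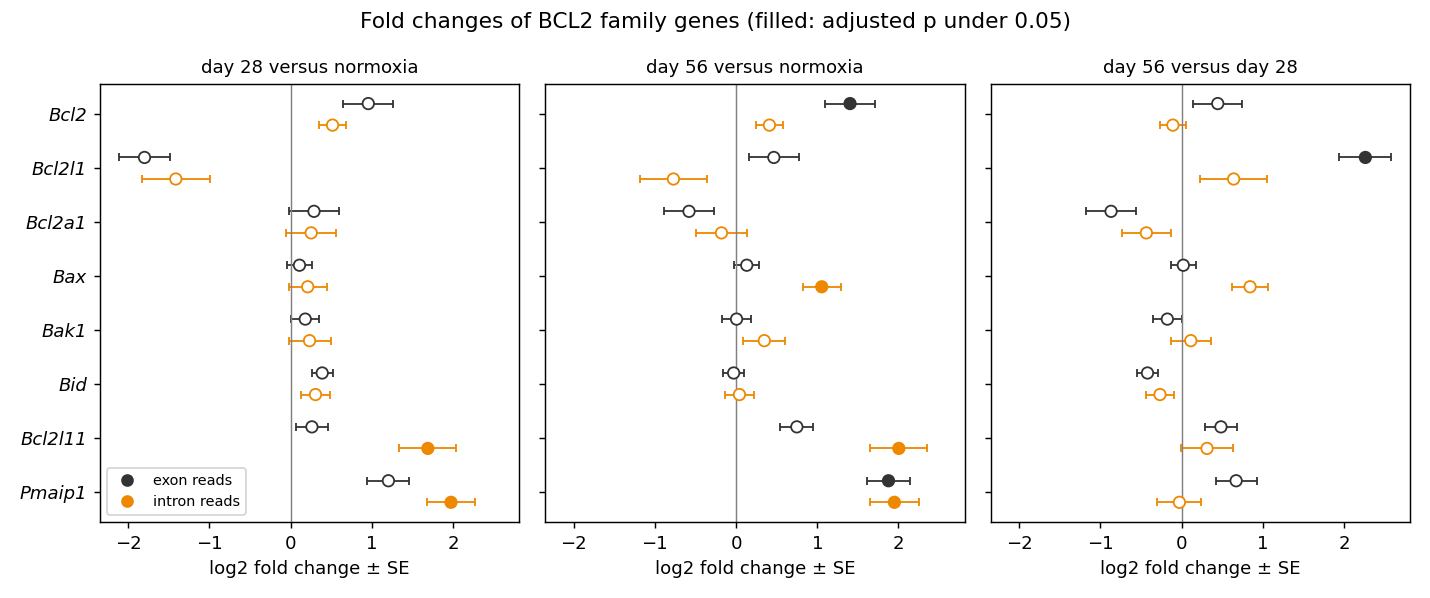
Log2 fold changes (x axis) of the 8 members in the 3 comparisons, from exon reads (dark) and from intron reads alone (orange); bars are SE and filled points have an adjusted p under 0.05. Pmaip1 from normoxia to day 56 is filled in both kinds of read (1.88 and 1.95), whereas Bcl2l1 between the days is 2.26 in exon reads and 0.64 in intron reads.

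Reads in introns come largely from transcripts not yet spliced, and they were fitted on their own as an alternative chosen after seeing the data. They called 2 members at day 28, against 1.59% of all genes in that fit, 3 at day 56, against 15.6%, and 0 between the days, against 0.922%. Pmaip1 held 55, 44 and 37 intron reads in normoxia replicates 1, 2 and 3. At day 28 it held 627, 642 and 218, and at day 56 it held 383, 339 and 291. In these counts, which are not scaled to the library, all 6 SuHx libraries exceeded all normoxia libraries. The log2 difference of Pmaip1 in intron reads was 1.98 at day 28 (SE 0.30, adjusted p = 0.0222) and 1.95 at day 56 (SE 0.30, adjusted p = 0.00515), and -0.03 between the days (SE 0.27, adjusted p = 0.972).

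Bcl2l11, which missed the threshold in exon reads, passed it in intron reads at both days. It held 87, 33 and 28 intron reads in normoxia, 392, 653 and 158 at day 28, and 325, 304 and 402 at day 56. The log2 difference in intron reads was 1.69 at day 28 (SE 0.35, adjusted p = 0.0432) and 2.00 at day 56 (SE 0.35, adjusted p = 0.00759), against 0.26 and 0.75 in exon reads. Bax also rose in intron reads at day 56 (1.06, SE 0.23, adjusted p = 0.0159), where its exon reads gave 0.13. The difference between exon and intron changes was not tested. Normoxia replicates 2 and 3 had smaller intron shares over all genes than every SuHx library, and these fits are scaled to intron reads alone.

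The Bcl2l1 locus gave many intron reads in every library: 1031, 2156 and 1262 in normoxia, 1608, 1776 and 1389 at day 28, and 1570, 1583 and 2399 at day 56. They made up 43.3 to 53.3% of the gene's reads in normoxia, 59.8 to 75.6% at day 28 and 38.6 to 41.7% at day 56. The share was higher in each day 28 library than in any other. Over all genes, day 28 replicates 1 and 2 also had the largest intron shares (24.9 and 21.4%). Day 28 replicate 3 had 14.2% over all genes, within the 5.37 to 16.9% of the normoxia and day 56 libraries. Scaled to the intron reads of each library, the difference of day 28 from normoxia was -1.41 (SE 0.42, adjusted p = 0.0759). Counting exon and intron reads together gave 1.36 between the days (adjusted p = 0.0831), and intron reads alone 0.64 (SE 0.42, adjusted p = 0.433). For Bcl2, intron reads made up 50.0 to 67.0% of the gene's reads over all libraries, and alone they gave 0.41 at day 56 (SE 0.17, adjusted p = 0.118).

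Levels can be compared between genes per kilobase of exon. Bcl2a1 stood first in every group, with 56.3 ± 17.1 CPM per kb in normoxia, 68.7 ± 25.6 at day 28 and 37.6 ± 7.68 at day 56 (SD, n = 3 each). In normoxia it was followed by Bax (27.3), Bid (26.1), Bcl2l1 (18.0), Bak1 (15.0), Pmaip1 (7.00), Bcl2l11 (3.86) and Bcl2 (3.28 CPM per kb). In that order Bax and Bid, Bcl2l1 and Bak1, and Bcl2l11 and Bcl2 overlapped between libraries, and the other neighbours did not. At day 28 the order was Bcl2a1, Bid (34.2), Bax (29.5), Bak1 (17.1), Pmaip1 (16.1), Bcl2 (6.40), Bcl2l1 (5.19) and Bcl2l11 (4.64 CPM per kb), with overlaps between Bid and Bax, Bak1 and Pmaip1, and among the last 3. At day 56 Bcl2a1, Bax (29.9), Pmaip1 (25.7), Bid (25.6) and Bcl2l1 (24.9) each overlapped with the next, and Bak1 (15.1), Bcl2 (8.71) and Bcl2l11 (6.50 CPM per kb) followed without overlap. Pmaip1 thus moved from the sixth place to the third, and Bcl2l1 from the fourth to the seventh at day 28 and the fifth at day 56.

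**Figure D4:**
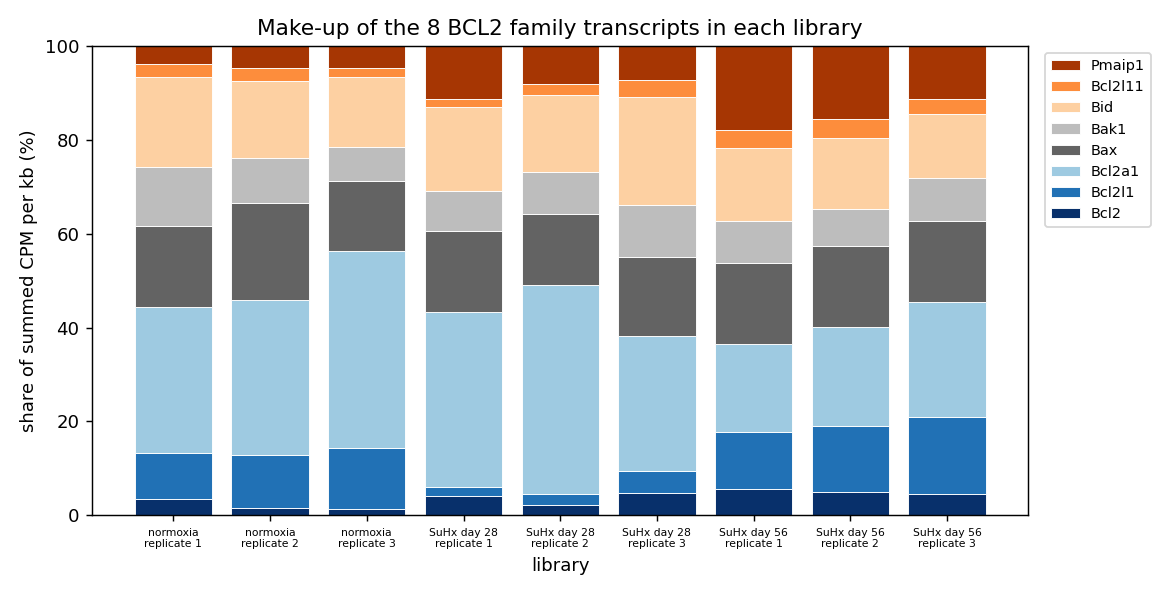
Share of each member (stacked, in percent) in the summed CPM per kb of the 8 members, for each of the 9 libraries; blue shades are survival genes, greys effectors and oranges BH3-only genes. Pmaip1 widens from 3.81 to 4.80% in normoxia to 11.3 to 17.8% at day 56, and Bcl2a1 narrows to 18.8 to 24.5% there.

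Shares were taken of the summed CPM per kb of the 8 members read, without Mcl1 and Bbc3, so they are not shares of the whole family. The 3 survival genes read together took 44.3 to 56.4% in normoxia, 38.3 to 49.0% at day 28 and 36.6 to 45.5% at day 56. The 3 BH3-only genes took 21.6 to 25.7% in normoxia, 27.0 to 33.9% at day 28 and 28.2 to 37.3% at day 56, and every SuHx library was above every normoxia library. Of the 3, only Pmaip1 lay above normoxia at both days, with 3.81 to 4.80, 7.25 to 11.2 and 11.3 to 17.8%. Bid took 14.9 to 19.1, 16.6 to 23.0 and 13.7 to 15.5%, overlapping normoxia at both days. Bcl2l11 took 1.87 to 2.87, 1.87 to 3.64 and 3.28 to 4.03%, overlapping normoxia at day 28. Bax and Bak1 together took 22.1 to 30.2% over all libraries. Shares of one sum are tied to each other, and none was tested.

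Ratios were taken for 4 pairs of members, chosen with their values known. Per kb, Bcl2l1 stood 2.72, 7.14 and 9.59 times as high as Bcl2 in normoxia, 0.460, 1.08 and 0.991 times at day 28 and 2.16, 2.74 and 3.75 times at day 56. Bcl2l1 was thus the more abundant of the pair in all normoxia and day 56 libraries and about level with Bcl2 or below it at day 28. Pmaip1 stood at 0.367 to 0.413 times Bcl2l1 in normoxia, 1.53 to 6.01 times at day 28 and 0.679 to 1.47 times at day 56. Against Bcl2a1, whose protein NOXA binds, Pmaip1 stood at 0.114 to 0.141 times in normoxia, 0.181 to 0.300 times at day 28 and 0.460 to 0.947 times at day 56, in 3 groups without overlap. Bax over Bak1 ranged from 1.36 to 2.20 in normoxia, 1.50 to 2.03 at day 28 and 1.87 to 2.18 at day 56, overlapping throughout. These ratios describe RNA in mixed cells and were not tested.

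The lists of the wider death pathway held 77 genes, of which 73 had a line and 65 were tested. At day 28, 0 of 65 passed, where 0.129% of all genes passed. At day 56, 3 rose and 1 fell relative to normoxia, which is near the 7.12% of all genes that passed there, and 1 rose between the days, where 0.546% of all genes passed. Among the other BCL2 family and BH3-like genes, 0 of 9 tested passed in any comparison. Their median log2 difference was -0.28 at day 28 and -0.05 at day 56.

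Of these relatives, Bcl2l2, a survival gene, measured 5.67 ± 1.79 CPM in normoxia, 8.49 ± 1.05 at day 28 and 9.74 ± 0.42 at day 56 (SD, n = 3; lowest adjusted p = 0.0691). Bad, a BH3-only gene controlled by growth factor signals, measured 5.60 ± 0.65, 9.17 ± 3.53 and 5.83 ± 1.08 CPM, and Bmf 17.1 ± 7.21, 20.2 ± 2.28 and 17.9 ± 3.89 CPM. Bik stayed at 0.859 to 1.83 CPM in group means, and Bok had 14 exon reads in all 9 libraries together and was not tested. Over the 22 alternatives Bcl2l2 passed at day 56 in 3, Bik in 2 and Bad in 1. Hrk was not analysed here. Cflar, the decoy that blocks caspase-8 at death receptors, measured 33.1 ± 0.79, 35.9 ± 2.19 and 32.5 ± 0.95 CPM.

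Of the wider lists, Cdkn1a and Btg2, a pair of genes that restrain cell division, rose at day 56. Cdkn1a, the cell cycle inhibitor p21, measured 1.00, 1.10 and 0.65 CPM in normoxia, 8.59, 9.62 and 2.27 CPM at day 28 and 13.7, 11.4 and 16.2 CPM at day 56. Its groups formed 3 steps without overlap, as those of Pmaip1 did, and its log2 rise to day 56 was 3.87 (SE 0.52, adjusted p = 0.00624). Btg2, an antiproliferative gene that is also an immediate-early gene, rose from 415 ± 30.1 to 969 ± 31.9 CPM (1.22, SE 0.20, adjusted p = 0.0125). The Btg2 call was lost without normoxia replicate 2 or 3 and without day 56 replicate 2 or 3 (adjusted p up to 0.0649). On intron reads alone both calls were lost: Btg2 gave 0.55 (adjusted p = 0.0552) and Cdkn1a 2.46 (adjusted p = 0.0527).

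Of the death receptors and their ligands, 1 of 8 rose at day 56, where 7.12% of all genes passed. Faslg, the Fas ligand of cytotoxic lymphocytes, measured 7.83, 5.96 and 8.44 CPM in normoxia, 5.48, 8.10 and 9.69 CPM at day 28 and 19.5, 18.4 and 24.3 CPM at day 56. Day 56 lay above the other groups, which overlapped, and the log2 rise was 1.49 against normoxia (SE 0.25, adjusted p = 0.0138) and 1.42 against day 28 (SE 0.24, adjusted p = 0.0423). NK cell markers summed to 466 to 752 CPM in normoxia, 323 to 647 CPM at day 28 and 724 to 896 CPM at day 56, and 7 of 8 were higher at day 56 in both comparisons; their part in the Faslg rise was not tested. Fas, its receptor, did not pass in any comparison. The rise against normoxia was lost without normoxia replicate 2 and without day 56 replicate 2 or 3 (adjusted p = 0.0673, 0.0543 and 0.0698). The rise between the days was called in 11 of 22 alternatives, and was 0.92 (adjusted p = 0.593) with the log2 globin share as a covariate.

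Of 17 caspases, apoptosome genes and mitochondrial effectors, 1 passed at day 56, near the 7.12% of all genes: Casp2 fell from 83.1 ± 6.13 to 54.8 ± 7.32 CPM at day 56 (-0.60, SE 0.15, adjusted p = 0.0433). Casp2 encodes an initiator caspase. It held in 9 of 22 alternatives and was lost without any single library other than normoxia replicate 1. Of 6 inhibitors of apoptosis and 11 stress regulators of BH3-only genes, 0 passed in any comparison, beside 0.129, 7.12 and 0.546% of all genes, and nothing is read from these small counts.

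By likeness of profile, measured as the root mean square difference of centred log2 CPM over the 9 libraries, the genes nearest to Pmaip1 were Mafk (0.25), Tob1 (0.27) and Enc1 (0.29). Nearest to Bcl2 were Itpkb (0.12), Rfx1 (0.13) and Sun2 (0.13). Among the genes nearest to Bcl2l1 were Sirt2 (0.26) and Rnf10 (0.27). Mafk ran from 20.3 to 21.3 CPM in normoxia to 75.7 to 81.8 CPM at day 56, and Rnf10 from 791 to 1499 CPM in normoxia to 171 to 620 CPM at day 28. All genes compared come from the same 9 libraries, whose depth and red cell content differ, and no p is given for the likeness.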

How the data were processed

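Sample groups came from the labels of the 9 libraries. The authors deposited 1 table for the series; per the file headers it gives, per gene and library, exon reads, uniquely mapped exon reads, exon plus intron reads and RPKM. The deposited exon reads are raw counts; in the replicate 1 columns a broken line holds fractions, so the values deposited there by the authors are formally estimated count values, all whole on the intact lines used. The RPKM values deposited by the authors were not tested. Per the submitters' processing notes, rn6 and FastQC were used; the aligner is not given in the sources used here. Of 22085 lines, 8 broken ones were left out, and 81 other columns of values per sample were not used.

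Exon reads were tested with edgeR 4.0.16 (R 4.3.3; TMM, filterByExpr, robust quasi-likelihood F-test, 1 mean per group over 9 libraries), Benjamini-Hochberg adjusted at 0.05 over 12447 genes. The common biological coefficient of variation was 0.280, and SE were derived from the F statistic. DESeq2 1.42.0, other scalings, filters, read classes, covariates and left-out libraries were alternatives; the code was tested on simulated data. The reads carry no molecular identifiers and need not be independent molecules. The members, gene lists and motifs were chosen with earlier results of these data known. The members are named whatever their result; of the wider lists, called genes (at most 8 rises and 8 falls a comparison) and Bcl2l2, Bad, Bmf, Bik, Bok, Hrk and Cflar are named; as profile neighbours, the 3 nearest genes of each called member. An item that these rules select is not reported here.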

Additional observations from a re-analysis of the deposited data

Results flagged for a closer look

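Bcl2l1 and Faslg stood out because their differences from the same normoxia libraries were not the same at both days, as tested by day 56 against day 28. For Bcl2l1 that difference was 2.26 on the log2 scale (edgeR, adjusted p = 0.0291), from -1.80 at day 28 and 0.47 at day 56 against normoxia. For Faslg it was 1.42 (adjusted p = 0.0423), from 0.07 at day 28 and 1.49 at day 56.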

How the results depend on the processing

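Over 22 alternatives, 459 of the members' log2 differences kept their direction and their side of the threshold; 33 newly passed it, 18 no longer passed and 18 turned sign. Pmaip1 at day 56 passed in 22 of 22, Bcl2 at day 56 in 12 and Bcl2l1 between the days in 14. The cause of these shifts was not tested. All 8 members had 78 or more reads in each library. The added fits without both normoxia replicate 1 and day 28 replicate 3, and on intron reads alone, were chosen after seeing the data.

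The number of the 8 members called at day 28 was 0, but 1 with upper-quartile factors or uniquely mapped reads, 2 with no filter on low counts, 2 on intron reads alone, and 4 with DESeq2 or without normoxia replicate 1 and day 28 replicate 3. At day 56 it was 2, but 1 with intron share as covariate or only the 2 groups compared, and 3 with DESeq2, on exon plus intron reads, on intron reads alone and without those 2 libraries; with log2 globin share as covariate the 2 were Bcl2l11 and Pmaip1; between the days it was 1, but 0 on exon plus intron reads, with log2 globin share as covariate or on intron reads alone, 2 with DESeq2 and 3 without normoxia replicate 1 and day 28 replicate 3. Leaving out 1 replicate at a time gave 0 to 4 members at day 28, 1 to 3 at day 56 and 0 to 2 between the days.

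Over all genes at day 28, 16 were called, but 8 with RLE factors, 79 with upper-quartile factors, 151 with no filter, 72 on unique reads, 1 with either covariate, 2 with only 2 groups, 1661 with DESeq2, 186 on intron reads and 5875 without normoxia replicate 1 and day 28 replicate 3. At day 56, 886 were called, but 138 with intron share and 503 with log2 globin share as covariate, 348 with only 2 groups, 2343 with DESeq2, 1833 on intron reads and 5790 without those 2 libraries. Between the days, 68 were called, but 0 with log2 globin share, 590 with only 2 groups, 1057 with DESeq2, 108 on intron reads and 1336 without those 2 libraries. Leaving out 1 replicate gave 2 to 5732, 85 to 5453 and 3 to 1002 calls.

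Deviations of same-numbered libraries from their group means correlated at -0.146 to 0.167, with 3 of 9 over 0.1. Libraries with unlike numbers gave -0.223 to 0.264. With 3 libraries a group, these correlations cannot decide whether the numbers pair the libraries. With the replicate block, 1 member was called at day 28 (Bcl2l1), 2 at day 56 and 1 between the days, beside 223, 540 and 186 of all genes.

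Signs turned mostly for values near 0. With log2 globin share as covariate, Bcl2a1 was -0.18 and Bax -0.088 at day 28. Bak1 at day 56 was -0.045 with intron share as covariate and -0.058 on exon plus intron reads. Intron reads alone gave Bcl2l1 -0.77 and Bid 0.042 at day 56, and Bcl2 -0.11, Bak1 0.11 and Pmaip1 -0.026 between the days. Without normoxia replicate 1 and day 28 replicate 3, Bid was 0.011 at day 56 and Bax -0.085 between the days. Among fits without 1 replicate, Bcl2a1 at day 28 ranged from -0.017 to 0.56, Bak1 at day 56 from -0.099 to 0.17, Bid at day 56 from -0.074 to 0.011 and Bax between the days from -0.073 to 0.091.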
